A study of Mus musculus with 6 samples.

Results

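The potassium channel genes were the 94 protein-coding genes, of 21864 in the mouse GRCm38 GENCODE annotation, whose symbol begins with Kcn followed by a letter. Membership was decided by symbol alone. The set holds pore-forming subunits of voltage-gated, calcium-activated, inwardly rectifying and two-pore-domain (K2P) channels together with their auxiliary subunits. Potassium channels let potassium leave the cell along its gradient and so hold the membrane at a negative potential. In lymphocytes that negative potential draws calcium through store-operated channels after antigen receptor signaling, and the channels best known for this role are the calcium-activated KCa3.1, encoded by Kcnn4, and the voltage-gated Kv1.3, encoded by Kcna3. Most other members are best known from neurons, heart muscle and kidney epithelium, where they shape action potentials or move potassium across the tissue. H3K4me3 marks promoters that are active or poised, and H3K4me1 marks enhancers and the flanks of promoters.

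The data were 6 lists of ChIP-enriched peaks from wild-type mouse germinal center (GC) B cells, 3 libraries for H3K4me3 (Abcam ab8580) and 3 for H3K4me1 (Abcam ab8895). The spleens were taken on day 8 after sheep red blood cells, an antigen that induces GCs, had been injected, and 50000 sorted cells were used per library in Mint-ChIP, a multiplexed low-input ChIP of native chromatin cut with MNase. The labels call the cells GC centrocytes and the genotype WT, while the study describes GC B cells and uses WT elsewhere for mice with 1 Cγ1-cre allele and no floxed gene, so whether these mice carried the Cre is not given in the sources used here. The labels' protocol text names an H3K27ac antibody, whereas the titles, the antibody labels and the design text name H3K4me3 or H3K4me1, and the marks are reported here under the latter names. Nothing in the labels says that the libraries came from separate mice, so the spread between them may be technical. The H3K4me3 lists held 41936 to 46707 peaks with a median width of 821 to 857 bp. The H3K4me1 lists held 11922 to 24136 peaks with a median width of 253 to 270 bp, and the first of them was the longest. H3K4me3 was listed as broad peaks down to a −log10 q-value of 1.02 to 1.14 and H3K4me1 as narrow peaks down to 1.31 or 1.32, so lengths and counts cannot be compared between marks as amounts of modification. Peaks record presence of a mark, not transcription. All 6 B cell markers (Pax5 among them) and all 6 GC markers (Bcl6 among them) had a promoter-proximal H3K4me3 peak in every library, with a median covered length of 7902 and 7284 bp. Of the markers of other cells that the gate could let through, 1 of 4 T cell genes (Cd3d, at 486, 1481 and 839 bp) and 2 of 4 myeloid genes (Itgam and Cd14) had one in every library. Cd3e, Cd4, Cd8a and Lyz2, all 4 neuron markers and all 4 heart markers had none in any library.

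A peak was called promoter-proximal when it lay within 5 kb of any annotated transcription start site (TSS) of the gene, and the covered length is the number of bases inside that window that lay under peaks. To show what kinds of DNA the marked and unmarked starts lie in, 7 promoter windows from RefSeq (build GRCm38.p6) are printed, each running from 250 bases before to 50 after a start, on the gene's strand, with CpG dinucleotides in capitals. The first 5 are among the 6 members with the longest H3K4me3 cover and the last 2 are unmarked genes, 1 from a neuron-type inward rectifier and 1 from a K2P channel listed among lymphocyte channels. Kcnn4 lies at chr7:24370013-24370312 (+), Kcna3 at chr3:107035912-107036211 (+), Kcnab2 at chr4:152477500-152477799 (−), Kcnk5 at chr14:20181733-20182032 (−), Kcnj1 at chr9:32393735-32394034 (+), Kcnj6 at chr16:94997647-94997946 (−) and Kcnk18 at chr19:59219398-59219697 (+).
Kcnn4: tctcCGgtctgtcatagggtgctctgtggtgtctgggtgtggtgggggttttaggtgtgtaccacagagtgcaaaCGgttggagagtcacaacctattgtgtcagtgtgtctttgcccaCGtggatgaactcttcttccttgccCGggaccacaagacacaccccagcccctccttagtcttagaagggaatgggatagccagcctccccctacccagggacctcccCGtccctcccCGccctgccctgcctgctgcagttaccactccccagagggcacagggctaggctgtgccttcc
Kcna3: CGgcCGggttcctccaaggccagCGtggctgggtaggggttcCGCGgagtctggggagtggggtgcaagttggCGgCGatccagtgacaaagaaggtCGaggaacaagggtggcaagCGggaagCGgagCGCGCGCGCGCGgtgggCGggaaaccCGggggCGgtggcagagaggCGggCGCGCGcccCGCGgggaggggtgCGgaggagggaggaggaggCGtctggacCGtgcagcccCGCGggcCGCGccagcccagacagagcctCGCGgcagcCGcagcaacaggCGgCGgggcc
Kcnab2: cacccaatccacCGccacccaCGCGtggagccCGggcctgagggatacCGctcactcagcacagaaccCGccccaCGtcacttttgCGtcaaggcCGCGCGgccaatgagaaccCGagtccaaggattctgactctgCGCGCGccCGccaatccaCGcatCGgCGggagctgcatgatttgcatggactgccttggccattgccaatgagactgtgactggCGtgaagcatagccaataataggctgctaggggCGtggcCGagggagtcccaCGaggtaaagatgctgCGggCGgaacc
Kcnk5: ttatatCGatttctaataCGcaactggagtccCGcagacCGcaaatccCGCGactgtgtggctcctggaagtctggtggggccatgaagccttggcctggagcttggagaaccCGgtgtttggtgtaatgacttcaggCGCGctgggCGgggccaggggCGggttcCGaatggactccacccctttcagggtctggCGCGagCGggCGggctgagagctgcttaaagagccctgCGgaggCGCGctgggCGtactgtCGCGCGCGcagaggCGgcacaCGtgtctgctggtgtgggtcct
Kcnj1: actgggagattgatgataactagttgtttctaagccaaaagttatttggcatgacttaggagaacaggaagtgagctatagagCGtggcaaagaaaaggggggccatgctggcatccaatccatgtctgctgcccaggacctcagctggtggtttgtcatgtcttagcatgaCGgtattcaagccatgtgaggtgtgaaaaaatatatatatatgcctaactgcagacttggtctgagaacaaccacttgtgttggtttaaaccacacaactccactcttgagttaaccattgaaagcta
Kcnj6: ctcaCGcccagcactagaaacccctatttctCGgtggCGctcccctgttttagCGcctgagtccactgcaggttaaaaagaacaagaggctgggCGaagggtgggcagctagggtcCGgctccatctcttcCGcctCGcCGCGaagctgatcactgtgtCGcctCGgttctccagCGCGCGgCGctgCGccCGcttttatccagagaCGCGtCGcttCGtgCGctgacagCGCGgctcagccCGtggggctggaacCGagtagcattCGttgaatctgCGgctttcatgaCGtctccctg
Kcnk18: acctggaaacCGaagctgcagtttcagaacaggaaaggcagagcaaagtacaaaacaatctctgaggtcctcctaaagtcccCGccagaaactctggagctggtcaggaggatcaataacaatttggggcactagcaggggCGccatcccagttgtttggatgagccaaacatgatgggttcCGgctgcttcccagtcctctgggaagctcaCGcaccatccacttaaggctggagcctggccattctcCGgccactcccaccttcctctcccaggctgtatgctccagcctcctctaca

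The start in the Kcnn4, Kcna3, Kcnk5 and Kcnj1 windows lay under an H3K4me3 peak in all 3 libraries, and the start in the Kcnab2 window in 2 of 3. The marked windows differed widely in CpG content. The Kcna3 window held 37 CpGs with an observed-to-expected ratio of 0.952, Kcnk5 held 26 with a ratio of 0.878 and Kcnab2 held 25 with a ratio of 0.85. Kcnn4 held only 6 CpGs with a ratio of 0.226, and Kcnj1 only 2 with a ratio of 0.142, so a CpG-rich start was not shared by the most widely covered genes. The unmarked Kcnj6 window held 30 CpGs with a ratio of 1.04, the highest of the 7, and Kcnk18 held 6 with a ratio of 0.269. A RefSeq window was found for 69 of the 94 members, under 80%, so a comparison of composition between marked and unmarked members is void and none is made. Short motifs were counted in the windows on both strands as plain letter matches. The GC box GGGCGG occurred 3 times in the Kcnk5 window, 2 times in Kcna3 and in Kcnab2, 1 time in Kcnn4 and not in the others, and 48.2% of the 16530 matched windows of all genes hold it. The octamer ATGCAAAT, known from immunoglobulin promoters, occurred in the Kcnab2 window alone among the matched members, and 1.63% of all windows hold it. None of the 7 windows held the ETS letters CCGGAAG, found in 12.3% of all windows. Nor did they hold the AP-1 letters TGANTCA, found in 7% of all windows. The TATA letters TATAAA, in 12.9% of all windows, and the left arm of the element bound by REST, TTCAGCACC, in 0.399%, were likewise not in the 7. A match or its absence in so short a window says nothing about binding.

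Of the 94 potassium channel genes, 29 (30.9%) had a promoter-proximal H3K4me3 peak in all 3 libraries, against 56.2% of all protein-coding genes. No such peak was found in any library for 39 (41.5%), against 34.5% of all genes. The other members were split, with 9 marked in 2 libraries and 17 in 1. In 13 members (13.8%) a peak lay over a TSS itself in every library, against 38.4% of all genes. They included Kcna3, Kcnab2, Kcnab3, Kcnip2, Kcnj1, Kcnj2, Kcnk10, Kcnk13, Kcnn4, Kcnq5, Kcns1 and Kcnt2. The share was steady between libraries. In the 3 H3K4me3 libraries 41, 39 and 42 members had a proximal peak, a mean of 43.3% ± 1.63 (SD, n = 3), and the share of all genes was 60.4% ± 1.23 (SD, n = 3). The ranges, 41.5 to 44.7% and 59.3 to 61.7%, did not overlap, and every library showed the same order.

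Other ion channel genes were set beside them as the most like families, for description only. Of the 14 sodium channel genes (Scn) 3 (21.4%) were marked in every H3K4me3 library, of the 26 calcium channel genes (Cacn) 9 (34.6%), and of the 24 transient receptor potential genes (Trp) 8 (33.3%). Per library, the share was 33.3% ± 8.25 for Scn, 50% ± 10.2 for Cacn and 38.9% ± 4.81 for Trp (SD, n = 3 each), and the potassium channel range of 41.5 to 44.7% overlapped that of Scn and Cacn and, at 41.7%, that of Trp. For H3K4me1, 6 potassium channel genes (6.38%) had a proximal peak in every library, against 6.17% of all genes, and none of the Scn, Cacn or Trp genes did. The per-library H3K4me1 share of potassium channel genes was 16, 10.6 and 12.8%, below the 26.7, 16.8 and 15.6% of all genes in the same libraries. The plot of shares by family shows each library as a point.

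**Figure D1:**
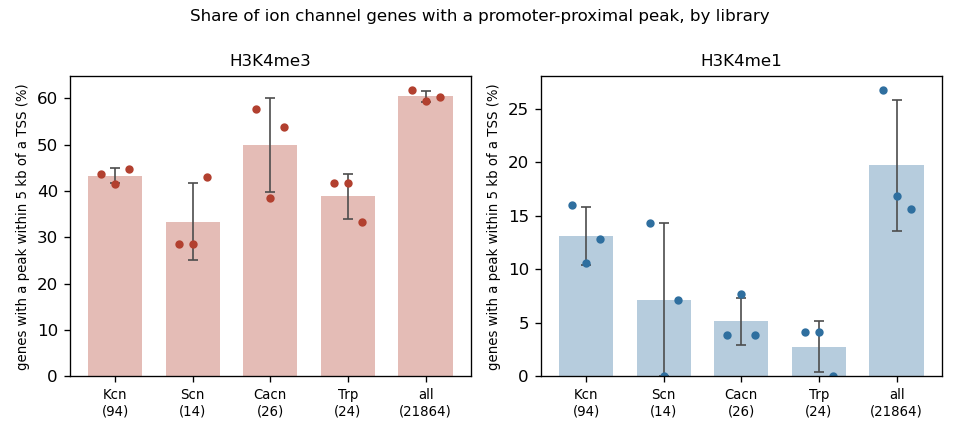
Share of genes with a peak within 5 kb of a TSS (%, bars are means, error bars SD over 3 libraries, points are libraries 1 to 3 from left to right) for potassium (Kcn), sodium (Scn), calcium (Cacn) and Trp channel genes and all protein-coding genes, with the number of genes in brackets. The Kcn points for H3K4me3 lie between 41.5 and 44.7%, below the points of all genes at 59.3 to 61.7%, and among those of the other channel families.

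The 29 marked members differed widely in how much of the window was covered. Their mean covered length ran from 448 bp at Kcng1 to 6811 bp at Kcnn4 with a median of 2412 bp, beside 2085 bp for the 12286 marked genes of all kinds. Of the 29, 18 lay above the 50th percentile of all marked genes, 4 above the 90th and 7 below the 10th. The 4 were Kcnn4 (97.9th percentile), Kcna3 (96.4th), Kcnj1 (93.7th) and Kcnab2 (93.4th). Going down the order of means, 27 of 28 neighbouring pairs had ranges that overlapped, and only Kcna3 and Kcnj1 were separate, so the order is firm only over larger steps. The window itself grows with the number of TSSs, from 10001 bp for a gene with 1 start to 40147 bp, and it was 10076 bp for Kcnn4, 10001 bp for Kcna3 and Kcnk5, 20440 bp for Kcnab2 and 28778 bp for Kcnj1.

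**Figure D2:**
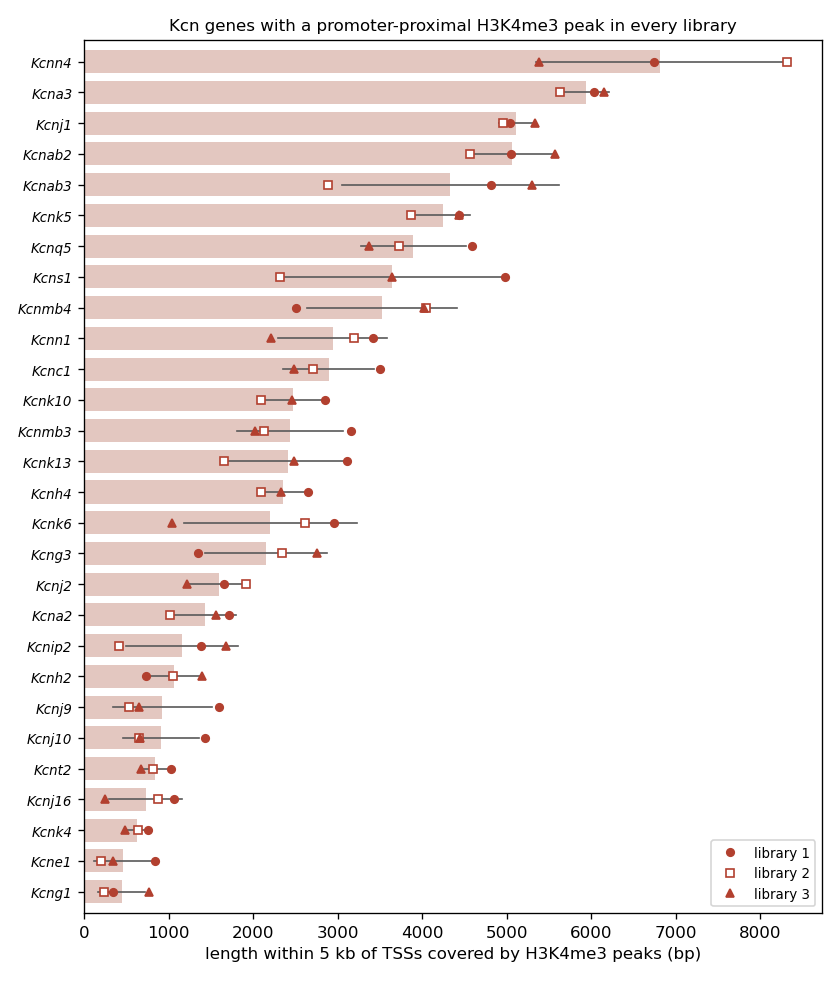
Length within 5 kb of TSSs covered by H3K4me3 peaks (bp) in Kcn genes with a proximal peak in every library, ordered by mean (bars), with the 3 libraries as points and SD as lines. Kcnn4 leads at 5376 to 8312 bp and Kcna3 follows at 5626 to 6152 bp, while Kcne1 and Kcng1 at the bottom stay at or under 834 bp in every library.

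Of the 5 members listed as lymphocyte channels, 4 were marked in every H3K4me3 library, against 56.2% of all protein-coding genes: Kcnn4, Kcna3, Kcnk5 and Kcnab2. The list was drawn up with these data known and is too short for its share to be read. The covered length at Kcnn4 was 6746, 8312 and 5376 bp in H3K4me3 libraries 1, 2 and 3. A single broad peak spanned its 3 start sites in each library, and together the peaks reached from 4153 bp upstream to 4717 bp downstream of the 5′ end (chr7:24366110-24374980). Its fold enrichment was 5.83, 5 and 5.73 and its −log10 q-value 6.27, 4.83 and 6.1, so the widest of the 3 peaks, in library 2, was also the weakest. Further into the gene, whose product opens when calmodulin binds calcium, 2 more intervals carried H3K4me3 in every library. A further stretch, 16307 to 18049 bp from the 5′ end, began inside the gene in library 1 and ran past its end, and the peaks of libraries 2 and 3 there lay wholly beyond the gene. The interval at chr7:24382977-24383575 lay in an intron 12714 to 13312 bp from the 5′ end and reached a fold enrichment of 11.5 in library 3, higher than at the promoter. Covered length in the gene body beyond 5 kb of the starts was 2007, 1663 and 1891 bp. H3K4me1 covered 428, 0 and 212 bp near the Kcnn4 starts, in short peaks that all lay inside the H3K4me3 domain.

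Kcna3, annotated as a gene of 1902 bp, was covered over 6026, 5626 and 6152 bp. One peak per library, of 7013, 6567 and 7133 bp, began 625 to 1151 bp upstream, spanned the whole gene and ended 5941 to 5987 bp past its start, beyond the 5-kb window (chr3:107035018-107042156). These peaks had fold enrichments of 7.07, 6.68 and 6.46 and −log10 q-values of 8.7, 7.95 and 7.46. The 3 libraries were closer to each other here than at Kcnn4, with an SD of 275 bp against 1469 bp. The same region also holds the start of AI504432, a long intergenic noncoding RNA gene, so the peak cannot be assigned to Kcna3 alone. H3K4me1 covered 1055, 0 and 499 bp, mostly on the downstream side. The mean covered lengths of H3K4me3 and H3K4me1 were 6811 ± 1469 and 213 ± 214 bp at Kcnn4 (SD, n = 3) and 5935 ± 275 and 518 ± 528 bp at Kcna3. One mark was listed as broad and the other as narrow peaks, so these values stand side by side and no difference in the amount of the marks is read from them. The two-sided exact permutation test over 20 assignments gave p = 0.1 for each gene, the smallest p that 3 against 3 libraries allow, and it says nothing about amounts for the same reason. When the −log10 q-value had to reach 5, the library 2 peak of Kcnn4 dropped out and the peaks of Kcna3 did not.

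Kcnab2 encodes a cytoplasmic beta subunit that binds Kv1 channels. Its covered length was 5055, 4567 and 5571 bp, divided between 2 promoters. The upstream one carried peaks of 2624, 854 and 2855 bp with fold enrichments of 8.14, 10.4 and 7.29, but the start of Nphp4 lies 271 bp away on the opposite strand and inside the same region. The downstream one, with its start at position 152448840 of chromosome 4, was covered in every library by peaks of 2431, 3233 and 2716 bp, and no other gene starts there. Kcnk5, which encodes the K2P channel TASK-2, was covered over 4431, 3870 and 4430 bp at its start. The annotated GENCODE start lay under the peak in libraries 1 and 3 and 14 bp outside it in library 2. Kcnk5 was one of the 6 members with proximal H3K4me1 in every library, at 328, 639 and 191 bp. Kcnk18, encoding the calcineurin-regulated channel TRESK, was the exception among the 5, with no peak of either mark near its start or in its body in any library.

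The K2P family, encoded by the Kcnk genes and known for background potassium currents, had 5 of 14 members (35.7%) marked in every H3K4me3 library, against 56.2% of all genes: Kcnk5, Kcnk10, Kcnk13, Kcnk6 and Kcnk4. Kcnk10 (TREK-2) was covered over 2848, 2092 and 2454 bp, with the peak over its 2 downstream starts and not over the most upstream one. Kcnk13 (THIK-1) was covered over 3109, 1649 and 2478 bp at the start. A second interval, in an intron 40570 to 42689 bp from the 5′ end, was also marked in every library. Kcnk6 (TWIK-2) was covered over 2954, 2614 and 1036 bp and so was less stable, with its TSS covered in 2 libraries. Kcnk4 (TRAAK) was covered over only 757, 641 and 480 bp, its peak never lay over the TSS, and the start of Gpr137 is 6324 bp away. Kcnk12 had a proximal peak in 2 libraries, and Kcnk2, Kcnk3 and Kcnk16 in 1 each. Kcnk1, Kcnk7, Kcnk9, Kcnk15 and Kcnk18 had none, which is 35.7% of the family against 34.5% of all genes. The mean covered length of the 5 went from 4244 bp at Kcnk5 to 626 bp at Kcnk4, whose ranges did not overlap, while those of Kcnk10, Kcnk13 and Kcnk6 did. Of the 5, Kcnk5, Kcnk13 and Kcnk4 also had a gene body peak in every library, as did Kcnk2, Kcnk3 and Kcnk9, which makes 6 of the 13 with gene body beyond 5 kb of their starts, against 27.0% of all such genes. The peaks of different libraries need not coincide, and at Kcnk4, Kcnk2 and Kcnk9 no single body region was present in every library.

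Across families, no family was marked throughout and the counts stand against 56.2% of all genes. The inward rectifiers (Kir) had 5 of 15 members marked in every library, the Kv1 channels 2 of 8, the silent Kv subunits 3 of 10, the EAG-ERG-ELK group 2 of 8 and the KCNQ channels 1 of 5. The Kv4 channels had none of 3 and the Kv2 channels none of 2, and the single regulator gene was not marked in every library. The small-conductance and intermediate-conductance group, to which Kcnn4 belongs, had 2 of 4, with Kcnn1 as the other. Both Kcnab2 and Kcnab3 of the 3 cytoplasmic beta subunits were marked, and Kcnab1 was not. Among the silent Kv subunits, which alter Kv2 channels and form none alone, Kcns1 was the longest at 4977, 2315 and 3637 bp with its TSS covered in every library.

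**Figure D3:**
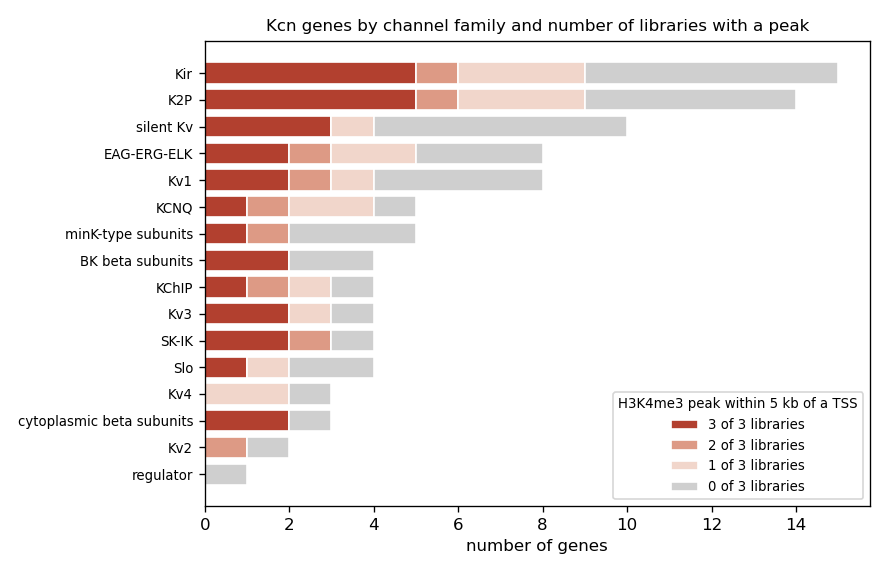
Number of Kcn genes in each channel family, divided by the number of H3K4me3 libraries (3, 2, 1 or 0) with a peak within 5 kb of a TSS. The Kir and K2P families each have 5 genes marked in all 3 libraries, and the Kv4 and Kv2 families and the regulator have none.

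Neighbouring members on one chromosome differed. Kcna3 and Kcna2, whose starts are 64977 bp apart, were both marked in every library, but Kcna2 was covered over only 1715, 1011 and 1561 bp, and most of that lay 3122 to 1898 bp upstream of its 5′ end (chr3:107098024-107099248). Kcna10, the next member along, had no peak of either mark. Kcnj1 encodes the renal channel ROMK and shares its neighbourhood with Kcnj5, an atrial G protein-gated channel subunit, the closest TSSs being 28143 bp apart. Kcnj1 was covered over 5036, 4960 and 5335 bp, only Kcnn4 and Kcna3 being longer, while Kcnj5 had no peak of either mark in any library. Of the 3 annotated starts of Kcnj1 only the most downstream, at position 32393985 of chromosome 9, lay under a peak, and the first lay 18436 to 18564 bp from the nearest H3K4me3 peak. H3K4me1 covered 1981, 906 and 383 bp near the Kcnj1 starts, a wider spread than that of H3K4me3. Kcnj2 and Kcnj16, 42304 bp apart, and Kcnj9 and Kcnj10, 11892 bp apart, were marked in pairs, at 1593 ± 352, 729 ± 429, 924 ± 583 and 912 ± 447 bp (SD, n = 3). The TSS was covered in 3 libraries at Kcnj2 and in 2 at Kcnj10. At Kcnj16 and Kcnj9 no TSS was covered in any library. Their nearest H3K4me3 peaks lay 3143 to 3365 and 1873 to 2573 bp from a start.

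Of the 35 members listed as neuronal, 10 (28.6%) were marked in every H3K4me3 library, against 56.2% of all genes, and 15 (42.9%) in none, against 34.5%. A further 2 were marked in 2 libraries and 8 in 1. Those with the longest covered length included Kcnq5, Kcnmb4, Kcnn1, Kcnc1 and Kcng3. Kcnq5, an M-current channel, was covered over 4584, 3727 and 3373 bp and had H3K4me1 in every library at 480, 218 and 396 bp, and the H3K4me3 region at its start also holds that of Gm26580, a long intergenic noncoding RNA gene. Kcnmb4, the neuronal beta subunit of the BK channel, was covered over 2505, 4047 and 4020 bp, and the region also holds the start of the antisense gene Kcnmb4os2. Kcnn1 and Kcnc1 had no TSS covered in any library. The Kcnn1 regions present in all 3 libraries lay 77 to 5806 bp upstream of the 5′ end, and shorter regions inside the gene were found in 1 or 2 libraries. The Kcnc1 regions present in all 3 lay 1868 to 7077 bp upstream and 4790 to 13785 bp inside the gene. Kcng3, a modulatory Kv subunit, was covered over 1348, 2340 and 2754 bp. Kcna2, Kcnj9, Kcnk4 and Kcnt2 were also marked, the last at 1032, 812 and 671 bp with its starts covered in every library. A peak over a TSS in every library was found in 3 of the 35 neuronal members, Kcnq5 and Kcnt2 among them, against 38.4% of all genes.

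Of the 12 members listed as cardiac, 4 (33.3%) were marked in every library, against 56.2% of all genes: Kcnj2, Kcnip2, Kcnh2 and Kcne1. Another 5 were marked in 1 library, and Kcna5, Kcnj5 and Kcnj12 (25%, against 34.5%) in none. The marked ones were covered over short stretches. Kcnj2, encoding the inward rectifier Kir2.1, was the longest at 1650, 1914 and 1216 bp with its TSS covered in every library. Kcnip2, encoding a Kv4 accessory subunit, was covered over 1380, 418 and 1675 bp at an internal start, while its 4 upstream starts lay 2406 to 3448 bp from the nearest peak. Kcnh2, encoding the hERG channel, had 734, 1054 and 1393 bp without a TSS covered, and its nearest peak lay 453 to 498 bp from a start. Kcne1, encoding the minK subunit, had 834, 194 and 340 bp, and in library 2 the nearest peak was 4490 bp from its start, just inside the 5-kb limit. Kcnq1, the pore-forming partner of minK in the heart, had a proximal peak in library 1 only. No cardiac member kept a peak in every library once the −log10 q-value had to reach 5, as 34.9% of all genes did. None of the 12 had H3K4me1 near a start in every library, against 6.17% of all genes.

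The unmarked members included well-known neuronal channels. Kcnj3 and Kcnj6, subunits of G protein-gated channels, and Kcnb2, Kcnc2, Kcnd2 and Kcna4, all voltage-gated, had no proximal H3K4me3 in any library. Kcna1, a Kv1 channel of axons, had 206 bp in library 3 alone. In 22 members no peak of either mark was found within 5 kb of a start or anywhere in the gene in any library, against 27.3% of all genes, among them Kcna10, Kcna5, Kcnj12, Kcnj3, Kcnj5, Kcnh5 and Kcnk18. Only Kcns2 had proximal H3K4me1 without proximal H3K4me3 in any library.

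The 6 members with proximal H3K4me1 in every library, Kcna2, Kcnab3, Kcnc1, Kcnj1, Kcnk5 and Kcnq5, were all among the 29 with H3K4me3 in every library. Only at Kcnab3 and Kcnk5 was a single proximal H3K4me1 region present in all 3 libraries. At Kcna2, Kcnc1, Kcnj1 and Kcnq5 no proximal H3K4me1 region was shared by all of them. Kcnab3, a cytoplasmic beta subunit, had H3K4me1 over 1001, 685 and 726 bp and an H3K4me3 length of 4813, 2885 and 5302 bp, but its region also holds the starts of Cntrob and Trappc1. Of 84 merged H3K4me1 regions at members 76.2% overlapped an H3K4me3 peak, and the 5 regions present in all 3 H3K4me1 libraries all did. Most H3K4me1 regions, 67 of 84, were found in 1 library only. In all, 384 H3K4me3 peaks and 107 H3K4me1 peaks of the 6 lists lay at members, 179 and 51 of them promoter-proximal. Of the 36 proximal H3K4me3 regions present in all 3 libraries, 7 also hold the start of another gene, 3 of them of a protein-coding gene. These overlaps and region counts were not computed over all genes, so none is read as particular to the members.

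In gene bodies the share of marked members lay close to that of all genes. Of the 84 members with gene body left beyond 5 kb of their starts, 21 had an H3K4me3 peak there in every library (25% against 27.0% of all such genes) and 5 an H3K4me1 peak (5.95% against 8.77%). Among the longest was Kcnk5 with 8715, 6754 and 8156 bp, nearly all in one intronic stretch 5418 to 14931 bp from the 5′ end (chr14:20166878-20176391). H3K4me3 peaks thus covered more bases in its body than near its start, but the body searched was longer and length is not amount. H3K4me1 covered 1805, 221 and 241 bp of the Kcnk5 body. Kcnip1, a Kv4-binding calcium sensor, had 4154, 2852 and 3338 bp in introns and H3K4me1 of 781, 395 and 471 bp, and a proximal peak in library 2 only. That peak lay 4819 bp from a start, and in the other libraries the same region lay 5377 and 5995 bp away, just beyond the 5-kb limit. Kcnq1 had 3895, 2612 and 1620 bp in the body, most of it in a region at chr7:143293720-143296549 that holds the start of Kcnq1ot1, the antisense noncoding RNA of this imprinted locus, and no H3K4me1. Kcnk13 had 2571, 2004 and 3009 bp. Among the 5 members with gene body H3K4me1 in every library were Kcnq5 (1169, 1327 and 218 bp), Kcnk5 and Kcnip1. Body peaks of different libraries need not coincide. Each Kcnq5 body region of H3K4me1 was found in 1 library only and no Kcnk5 one in every library, while Kcnip1 had a region shared by all. In 7 of the 84 members the body was marked with H3K4me3 in every library and the start in none, against 3.34% of all such genes, among them Kcnab1, Kcng2, Kcnh6, Kcnip4, Kcnj6 and Kcnk9. That share was not matched for the length of body searched. The 6 named genes run from 26426 bp at Kcnh6 to 1135406 bp at Kcnip4, so no excess is read from the count. At Kcnip4, Kcnj6 and Kcnk9 the peaks lay at different places, and no single body region was present in every library. A peak inside a gene need not belong to it. At Kcnh6 the region 25061 to 29811 bp from the 5′ end holds the start of Dcaf7. The other Kcnh6 body regions, also present in all 3 libraries, hold no start of another gene.

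**Figure D4:**
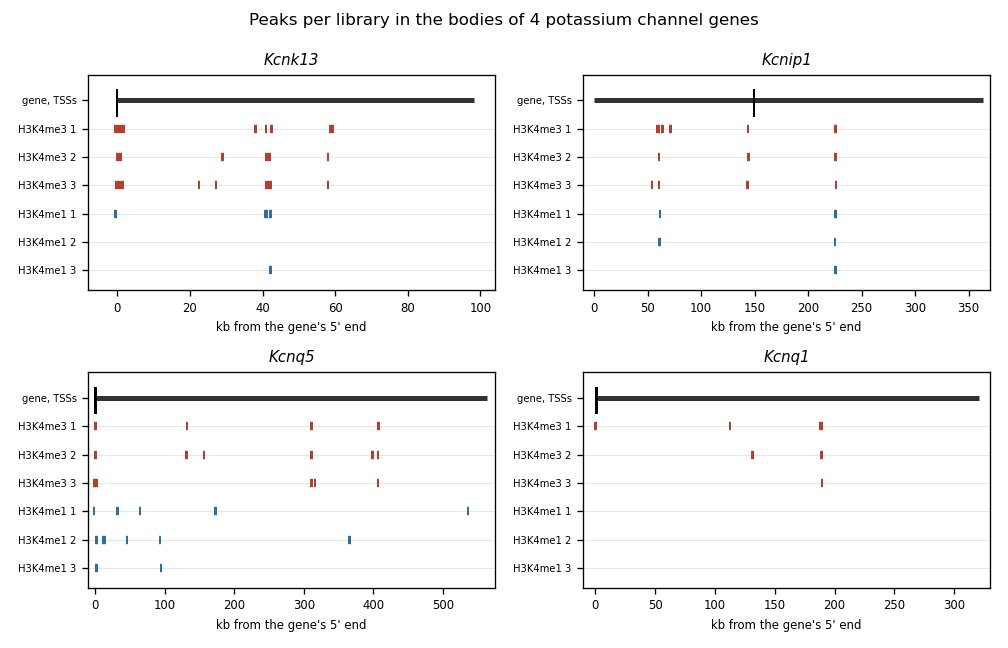
Peaks of each library (bars, H3K4me3 in red, H3K4me1 in blue, drawn at least 0.6% of the axis wide) against distance from the 5′ end (kb) in Kcnk13, Kcnip1, Kcnq5 and Kcnq1, with the gene as a black bar and TSSs as ticks. Kcnk13 and Kcnq5 carry H3K4me3 at the start and again in introns in all 3 libraries, in Kcnip1 the regions marked in all 3 libraries lie in introns, and in Kcnq1 the only region marked in all 3 libraries lies at the start of Kcnq1ot1.

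The genes that potassium channels work with in lymphocytes were described from a list of 33 genes of calcium entry and the potassium gradient. Of these, 32 (97%) were marked with H3K4me3 in every library, against 56.2% of all genes, and Atp1b1, a sodium pump subunit, in 2. H3K4me1 was present in every library at 5 of the 33 (15.2%), against 6.17% of all genes. Their median covered length was 2473 bp, close to the 2412 bp of the 29 marked potassium channel genes. Nfatc1, the transcription factor that calcium and calcineurin activate, had 11524, 11101 and 12392 bp, and Nfatc3 had 8413, 6615 and 6978 bp. Stim1, the calcium sensor of the endoplasmic reticulum, had 2735, 3025 and 2911 bp, and Orai1, the pore of the store-operated channel, only 909, 690 and 734 bp. Kcnn4 and Kcna3 lay above Stim1 and Orai1 and below Nfatc1 in every library, in windows that differ with the number of starts.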

How the data were processed

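Mint-ChIP peak lists of 3 H3K4me3 and 3 H3K4me1 libraries were used, grouped by mark from the titles. Per the labels, BWA, Picard, HOMER and Genrich were used with build mm10, and the peak caller's role, its settings and any control are not given in the sources used here. Replicates were not pooled. The deposited files give each peak a fold enrichment (a ratio over background) and its p-value and q-value as −log10, which the authors' caller computed, and no read counts, so depth is unknown and its effect on precision cannot be stated. The score column, which in the deposited files follows the −log10 q-value, was not used.

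Peaks were intersected with protein-coding genes of the GENCODE basic set, release 21 for mouse (21864 genes, 41451 distinct TSSs, the members having 201), of the same assembly. A member counts as marked if a peak lies within 5 kb of a TSS in 3 of 3 libraries. The members and lists were chosen with earlier results of these data known. Named genes were Kcnn4, Kcna3 and all Kcnk genes, the 12 longest marked members, those with H3K4me1 in every library, the 6 longest neuronal and cardiac ones, the 5 with the longest body cover for each mark, and a set of silent examples. Genes named beyond these were chosen after their values were seen. Counts over members got no test, and the main ones are given beside the share of all protein-coding genes. Exact permutation tests set covered length of one mark against the other at 2 genes, but one was listed as broad and the other as narrow peaks, so no difference in amount is read from them. Alternatives were a distance of 1 kb, a peak over the TSS, a −log10 q-value of at least 5, the 10000 best peaks per library, 2 of 3 libraries, the gene's 5′ end only, the nearest gene only, and each library left out. Overlap and permutation functions were tested on simulated data. Python 3.11.15 and numpy 2.4.6 were used. A few members and markers are counted but not reported here by name.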

Additional observations from a re-analysis of the deposited data

How the results depend on the processing

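Of 92 alternative values 68 kept the direction or stayed within 1.5 times the main count, and 24 moved. The count of members with H3K4me3 in every library was 13 with a peak over a TSS, 13 at a −log10 q-value of at least 5 and 4 with the 10000 best peaks per library (main 29), while the share of all genes was 38.4, 34.9 and 23.8%. Under the same 3 settings the count with no H3K4me3 was 70, 67 and 81 (main 39), beside 49.5, 49.3 and 57.5% of all genes (main 34.5%), the neuronal count 3, 5 and 1 (main 10), the cardiac count 2, 0 and 0 (main 4) and the Kcnk count 2, 2 and 0 (main 5). The H3K4me1 count (main 6) was 1 within 1 kb, 0 with a peak over a TSS, 0 at the stricter q-value, 1 with the 10000 best peaks and 10 with 2 of 3 libraries, while the share of all genes was 1.49, 0.0274, 0.503, 4.4 and 17.2% (main 6.17%). The gene body H3K4me3 count (main 21) was 10 at the stricter q-value and 2 with the 10000 best peaks, beside 10.6 and 6.38% of all such genes (main 27.0%), and the gene body H3K4me1 count (main 5) was 0 at the stricter q-value and 8 with 2 of 3 libraries, beside 1.9 and 15.7% (main 8.77%). These settings keep fewer peaks, a shorter window or fewer libraries by construction. At the stricter q-value the 13 members did not include Kcnn4, and the 4 among the 10000 best peaks were Kcna3, Kcnab2, Kcnab3 and Kcnmb4. Leaving out 1 library gave 31 to 33 members with H3K4me3, 6 to 9 with H3K4me1 and 42 to 46 with no H3K4me3. The shares of all genes were 56.8 to 58%, 7.42 to 11.4% and 35.9 to 37.2%. The neuronal count was 10 to 11, the cardiac 4 each time and the Kcnk 5 to 6, beside the same 56.8 to 58%. In gene bodies 22 to 25 members had H3K4me3, beside 28.2 to 29.7% of all such genes. For gene body H3K4me1 the count was 5 to 7, beside 9.59 to 12.4%. Leaving out a library is an easier condition, for all genes too. The covered length of H3K4me3 less that of H3K4me1, lists of different peak formats, was then 5848 to 7316 bp at Kcnn4 and 5158 to 5685 bp at Kcna3. Whether the replicate numbers pair the libraries cannot be told from these lists. Deviations of same-numbered libraries correlated at 0.16, 0.063 and 0.014, and those of differently numbered ones at −0.26 to 0.22. Such values from thresholded lists of different peak formats cannot decide it. With the replicate block the differences were 6598 and 5417 bp (exact sign-flip permutation p = 0.25 each, the smallest that 3 pairs allow). Peak lists without reads cannot show signal below the caller's threshold, so an absent peak is not an absent mark.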

Other observations

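Of the 35 members in none of the tissue lists, 8 (22.9%) had promoter-proximal H3K4me3 in every library, against 56.2% of all genes. Kcnmb3, a BK channel beta subunit, was covered over 3162, 2133 and 2023 bp with a TSS under the peak in 1 library, and Kcnh4, an ELK-type voltage-gated channel, over 2643, 2092 and 2333 bp with a TSS covered in 2. Part of the Kcnh4 cover, 1370 to 2767 bp upstream of its 5′ end, lay nearer to Hcrt, whose start is 2986 bp away and which was itself counted as marked in every library. Some members marked in only 2 libraries still had a TSS under the peak in both. Kcna7, a Kv1 channel, was covered over 0, 345 and 790 bp in libraries 1, 2 and 3, and Kcnn3, a small-conductance calcium-activated channel, over 675, 0 and 683 bp.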
